A study of Mus musculus with 12 samples.

Results

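Cx3cr1, S1pr5 and Zeb2 are 3 of the 32285 genes measured in T cells sorted from the brains of mice that model Alzheimer-type amyloid and tau pathology. They were chosen on these same data, for their lower level in CD8 T cells of amyloid-bearing pools and because they mark a common cluster of cells, so those levels are given as a description, with no test. All 3 were found in every pool. They were followed here across CD8, CD4 and gamma-delta T cells, across clone sizes defined by the T cell receptor, and across 6 pools of mice.

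Cx3cr1 encodes the receptor for the chemokine fractalkine. In mouse T cells it marks effector cells that patrol the circulation, and in the brain it is best known as a microglial gene. S1pr5 encodes a receptor for sphingosine 1-phosphate, the lipid whose gradient draws lymphocytes out of tissue into blood and lymph, and it serves natural killer cells and effector T cells in that role. Zeb2 encodes a zinc finger repressor that binds E-box sequences and acts with the T-box factor T-bet in terminal effector differentiation of CD8 T cells. Cells that settle in tissue as resident memory cells usually have low levels of these genes.

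All mice were female, 9 months old and littermates of a colony from hemizygous PS19 (on B6C3F1/J) and hemizygous 5XFAD (C57BL6 congenic) parents. PS-5X mice carried both transgene sets, 5XFAD mice the amyloid transgenes, PS19 mice a mutant human MAPT transgene under a mouse prion protein promoter, and WT mice neither. Brain T cells were pooled before capture, so a pool is the unit of replication: PS-5X (4 mice), 5XFAD-2 (3 mice) and 5XFAD-1 (4 mice) had amyloid, while PS19 (4 mice), WT-2 (8 mice) and WT-1 (10 mice) did not. CD4+, CD8+ and gamma-delta T cells were sorted after perfusion with PBS, enzyme digestion and a Percoll step, and the transcripts and the receptors of each pool were read from its 5′ libraries. A separate sequencing run covered 5XFAD-2 and WT-2, so the run cannot be told apart from the difference between these and their partner pools. Levels are unique molecular identifiers (UMIs) of a gene, summed over the cells of a class in a pool and scaled to a total of 1000000 UMIs (CPM). Intervals cover counting error only.

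The promoters of the 3 genes and the receptors of the clones that carried them in WT-2 are shown first, because the genes were found in the same cells and because expanded clones held most of those cells in WT-2. The promoter windows hold 250 bases before and 50 after the start of transcription, from RefSeq on GRCm38.p6, at chr9:120068247-120068546 (minus strand) for Cx3cr1, chr9:21248394-21248693 (minus strand) for S1pr5 and chr2:45117393-45117692 (minus strand) for the first of 4 Zeb2 entries. Capitals mark the CACCC box bound by Krüppel-like factors, here CACCC or GGGTG, and in Cx3cr1 also ACCACA, the other strand of the Runx site TGTGGT.
Cx3cr1: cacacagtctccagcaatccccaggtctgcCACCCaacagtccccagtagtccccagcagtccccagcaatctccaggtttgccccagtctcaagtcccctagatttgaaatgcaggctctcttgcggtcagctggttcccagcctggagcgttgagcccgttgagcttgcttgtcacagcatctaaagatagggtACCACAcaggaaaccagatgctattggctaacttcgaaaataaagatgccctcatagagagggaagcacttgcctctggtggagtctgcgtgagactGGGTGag
S1pr5: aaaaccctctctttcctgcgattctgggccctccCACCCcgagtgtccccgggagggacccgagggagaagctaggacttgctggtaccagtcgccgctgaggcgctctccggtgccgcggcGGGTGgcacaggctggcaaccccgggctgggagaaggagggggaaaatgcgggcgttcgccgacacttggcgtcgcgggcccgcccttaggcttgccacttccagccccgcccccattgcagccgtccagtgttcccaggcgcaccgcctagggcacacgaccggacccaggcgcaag
Zeb2: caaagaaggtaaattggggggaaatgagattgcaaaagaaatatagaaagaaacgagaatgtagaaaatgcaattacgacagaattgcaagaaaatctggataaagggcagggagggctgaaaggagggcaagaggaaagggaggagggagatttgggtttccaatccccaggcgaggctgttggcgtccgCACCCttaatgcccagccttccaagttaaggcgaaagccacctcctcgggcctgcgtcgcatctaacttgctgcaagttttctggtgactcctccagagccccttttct
A CACCC box stood in all 3 windows, as it did in 57.5% of 32851 promoter windows of the same length. Of the 3 Zeb2 entries not printed, the fourth held it and the others did not. In Cx3cr1 it lay at -220 and, on the other strand, at 43 from the start, in S1pr5 at -216 and, on the other strand, at -128, and in Zeb2 at -59. The Runx site lay at -54 in Cx3cr1 and was found in 16.8% of all windows. The E-box CAGGTG, found in 20.2% of all windows, was not present in these letters on either strand. The T-box core GGTGTG, found in 19% of all windows, was present in the other 3 Zeb2 entries and not in the windows printed. It can overlap GGGTG where a further G precedes it. These matches describe letters and not bound sites.

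The receptors are the beta chain CDR3 of the 3 WT-2 clones with the most cells in which at least 2 of the 3 genes were detected. The beta chain genes lie on chromosome 6, and the lower case shows that no base is marked.
TRBV16 TRBJ2-2 (44 cells, 34 of them with at least 2 genes): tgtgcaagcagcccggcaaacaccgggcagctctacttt
TRBV17 TRBJ1-2 (21 cells, 21 with at least 2 genes): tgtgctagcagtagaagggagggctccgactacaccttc
TRBV10 TRBJ1-1 (21 cells, 18 with at least 2 genes): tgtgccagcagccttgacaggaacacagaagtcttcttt
These 3 receptors use different V and J genes and differ in the bases of the junction.

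After filters, 17376 cells remained, of which 10212 were classed as CD8, 2609 as CD4 and 743 as gamma-delta T cells from receptor chains and coreceptor UMIs. Pools held 439 to 3706 CD8 cells with a median of 5782 to 7840 UMIs per cell. Pairs of pools shared 1 to 23 cell barcodes, in no case with the same receptor. WT-1 stood apart in another way: 58 of its receptors (110 cells) were identical to receptors of 5XFAD-1, 42 (58 cells) to receptors of PS19 and 2 (4 cells) to receptors of PS-5X, and PS19 shared 6 with PS-5X. WT-2 and 5XFAD-2 shared no receptor with another pool. The source of the shared receptors was not tested. Results are given without WT-2 where this changes them. Values without WT-1 are given for the amyloid contrast in CD8 cells and, further below, within the ranges from leaving out each pool.

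Pool WT-2 held by far the highest levels of all 3 genes in CD8 T cells. Cx3cr1 stood at 50.1 CPM in WT-2, against 6.36 in PS-5X, 9.00 in 5XFAD-2, 13.4 in 5XFAD-1, 14.3 in WT-1 and 16.5 in PS19. S1pr5 stood at 49.6 CPM in WT-2, against 5.60 in PS-5X, 10.9 in 5XFAD-2, 10.5 in 5XFAD-1, 11.2 in WT-1 and 14.6 in PS19. Zeb2 stood at 88.7 CPM in WT-2, against 29.2 in PS-5X, 31.2 in 5XFAD-2, 34.2 in 5XFAD-1, 36.5 in WT-1 and 35.0 in PS19. PS-5X was lowest for each gene. Outside WT-2 the pools lay close together for Zeb2, while for Cx3cr1 and S1pr5 the exact 95% Poisson intervals of PS-5X and PS19 were apart (Cx3cr1 5.39 to 7.45 CPM in PS-5X and 14.2 to 19.1 CPM in PS19). WT-2 exceeded the highest other pool 3.03-fold for Cx3cr1, 3.40-fold for S1pr5 and 2.43-fold for Zeb2, and the median of the other pools 3.74-fold, 4.56-fold and 2.60-fold in the same order of genes.

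**Figure D1:**
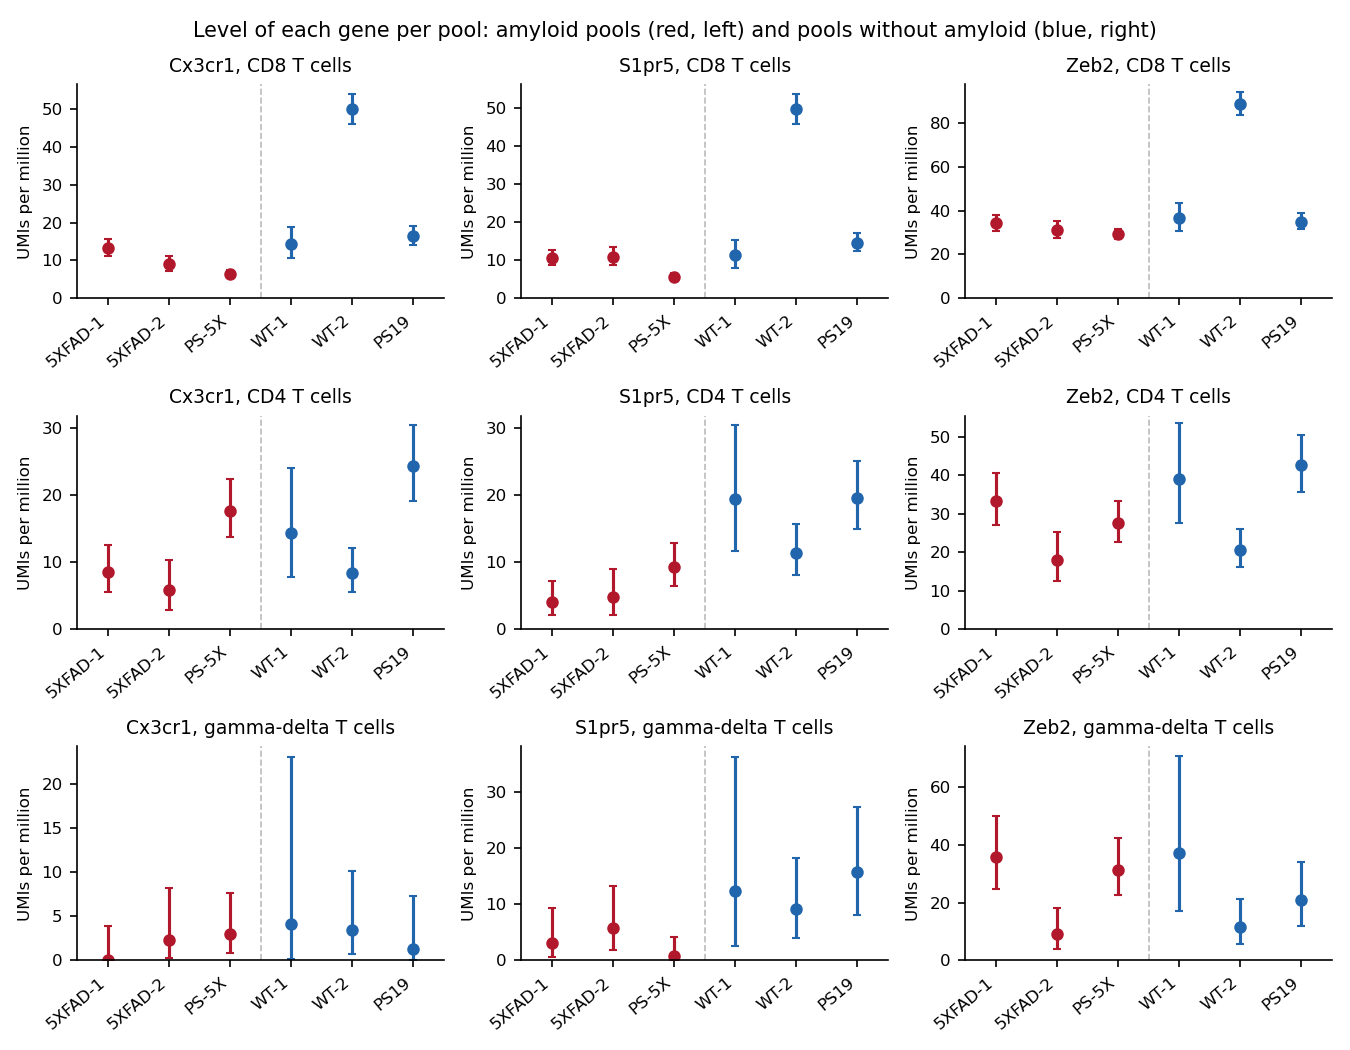
Level of Cx3cr1, S1pr5 and Zeb2 (columns; CPM) in CD8, CD4 and gamma-delta T cells (rows) of each pool, with exact 95% Poisson intervals of the counts. Amyloid pools are red on the left and pools without amyloid blue on the right; WT-2 stands out in the CD8 row only.

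The amyloid contrast in CD8 cells, on which the genes were chosen, rested largely on WT-2. Cx3cr1 averaged 9.58 ± 3.55 CPM in amyloid pools and 27.0 ± 20.03 CPM in pools without amyloid (SD, n = 3 each), a level 2.81-fold higher without amyloid. Leaving out WT-2, the pools without amyloid averaged 15.4 ± 1.56 CPM (SD, n = 2), and the ratio was 1.61. S1pr5 averaged 8.99 ± 2.94 CPM in amyloid pools and 25.1 ± 21.2 CPM without amyloid (SD, n = 3 each), 2.80-fold higher without amyloid, and 1.44-fold once WT-2 was left out. Zeb2 averaged 31.6 ± 2.496 CPM in amyloid pools and 53.4 ± 30.6 CPM without amyloid (SD, n = 3 each), 1.69-fold higher without amyloid, and 1.13-fold once WT-2 was left out. With WT-1 left out in place of WT-2, the ratios were 3.47 for Cx3cr1, 3.57 for S1pr5 and 1.96 for Zeb2. Each amyloid pool was still below each pool without amyloid for all 3 genes in these sums. The order did not hold in other sets of cells. Without cells whose receptor another pool shared, 5XFAD-1 had 16.7 CPM of Cx3cr1, against 15.8 in PS19 and 13.7 in WT-1, and 37.6 CPM of Zeb2, against 31.1 in PS19 and 33.4 in WT-1. With each clone counted once, 5XFAD-1 had 24.6 CPM of Cx3cr1, against 21.5 in PS19 and 20.7 in WT-1, and was above WT-1 for S1pr5 and above both for Zeb2. The nearest pools lay within counting error of each other, since 5XFAD-1 at 13.4 CPM of Cx3cr1 fell inside the interval of WT-1 (95% Poisson, 10.7 to 18.8 CPM). Within the common sequencing run the ratio of pools without to pools with amyloid was 1.56 for Cx3cr1, 1.60 for S1pr5 and 1.13 for Zeb2. Within the separate run, with 1 pool on each side, it was 5.56, 4.56 and 2.84. edgeR called 0% of the 11723 genes tested in this contrast at an adjusted p under 0.05, with 1110 genes at an unadjusted p under 0.05 and 69 called by DESeq2. In these sums, fewer cells with the genes and less RNA per cell cannot be told apart, so the cells were counted next.

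More cells of WT-2 carried the genes. With each cell thinned to 2000 UMIs, 9.40% of WT-2 CD8 cells had a Cx3cr1 UMI (95% exact binomial interval 8.16 to 10.8), against 1.13% to 3.17% in the other pools. For S1pr5 the share was 9.30% in WT-2, against 1.22% to 2.67% across the other pools. For Zeb2 it was 14.0% in WT-2, against 5.70% to 6.96% across the other pools. Naive-type CD8 cells, defined by UMIs of at least 2 of 6 naive genes, with Ccr7, Lef1, Dapl1, Actn1 and Igfbp4 among them, served as the background, with 0.480%, 1.26% and 1.82% for the 3 genes. Their median depth was 7759 UMIs, against 6494 over all CD8 cells. The S1pr5 share of PS-5X was not above this background. Of all CD8 cells, 2311 had exactly 1 and 832 exactly 2 of the 6 genes, so the border of the naive-type class is not sharp. Without thinning, WT-2 had 13.2% for Cx3cr1, 13.8% for S1pr5 and 20.2% for Zeb2, against a naive-type background of 1.31%, 3.94% and 5.87%.

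The 3 genes were found in the same cells. They were chosen in part because they mark a common cluster, which favours this, so these shares are a description. Of 560 CD8 cells with a Cx3cr1 UMI, 57.3% also had S1pr5, against 2.69% of cells without Cx3cr1. Zeb2 was detected in 73.6% of the cells with Cx3cr1 and in 10.8% of the cells without it. In the other direction 28.4% of 1451 cells with Zeb2 had Cx3cr1, so most cells with a Zeb2 UMI showed no Cx3cr1 at this depth. The pattern held in each pool, from 35.4% of cells with Cx3cr1 also showing S1pr5 in PS-5X to 70.1% in WT-2. Cells with at least 2 of the 3 genes made up 14.5% of WT-2 CD8 cells (291 of 2008), against 1.94% in PS-5X, 3.25% in 5XFAD-2, 3.90% in 5XFAD-1, 4.56% in WT-1 and 5.37% in PS19. They were shallower than cells with none, with a median of 4370 against 6579 UMIs over all pools. Within the cells that had a Cx3cr1 UMI, its level was 453 CPM in WT-2, against 294 to 373 CPM across the other pools. Those cells were shallowest in WT-2, with a median of 4215 UMIs, against 4351 to 6984 across the other pools. In a shallower cell each UMI counts for more CPM. The mean number of Cx3cr1 UMIs in those cells was 2.37 in WT-2, against 1.85 to 2.22 across the other pools.

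The cluster that the 3 genes lead, with Gzma, Klrg1, Klre1 and Gzmb, held 15.8% of WT-2 CD8 cells, against 2.64% to 6.23% in the other pools. It contained 80.7% of the Cx3cr1, 78.6% of the S1pr5 and 55.1% of the Zeb2 UMIs of CD8 cells. Inside it the levels of the 6 pools lay between 268 and 393 CPM for Cx3cr1, 200 and 416 CPM for S1pr5 and 436 and 683 CPM for Zeb2. The genes took part in the clustering, so these values are a description.

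The lead of WT-2 was larger in its expanded clones than in its single-cell clones. Among clones of at least 2 cells, WT-2 exceeded the median of the other pools 8.49-fold for Cx3cr1, 8.88-fold for S1pr5 and 3.86-fold for Zeb2. Among clones of 1 cell, the lead was 1.67-fold, 2.45-fold and 1.55-fold. Counting each clone once gave 1.87-fold, 2.64-fold and 1.79-fold, and leaving out clones of at least 5 cells gave 1.76-fold, 2.49-fold and 1.64-fold. WT-2 was still the highest pool for each gene in all of these sets. Without naive-type cells the lead was 5.22-fold, 6.84-fold and 4.00-fold, and among single-cell clones without naive-type cells 2.64-fold, 4.02-fold and 2.24-fold. The sets that split expanded from single-cell clones were chosen after seeing the data.

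**Figure D2:**
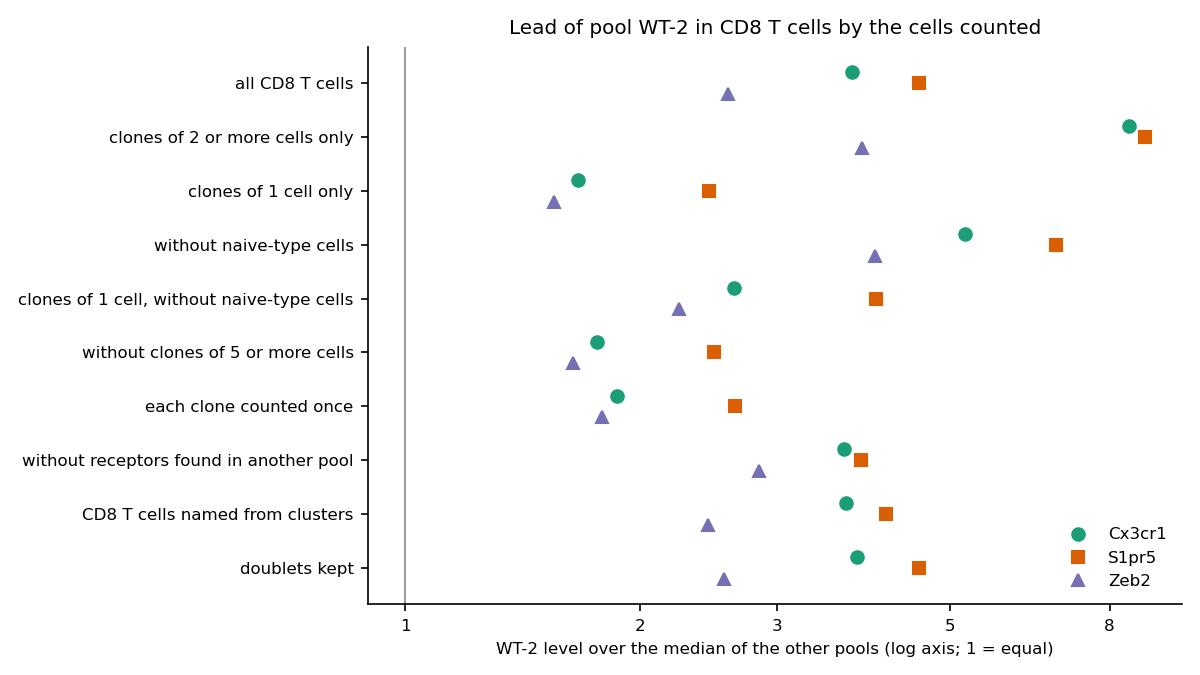
Level in WT-2 over the median of the other 5 pools (horizontal log axis, 1 means equal) for Cx3cr1, S1pr5 and Zeb2 in CD8 T cells, for the sets of cells named on the vertical axis. The lead is largest in clones of 2 or more cells for Cx3cr1 (8.49-fold) and S1pr5 (8.88-fold) and without naive-type cells for Zeb2 (4.00-fold), and smallest in clones of 1 cell (1.67-fold, 2.45-fold and 1.55-fold).

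Several WT-2 clones contributed, and none held most of the cells. The 291 WT-2 cells with at least 2 of the genes fell into 140 clones. The largest of these clones held 34 of them (11.7%) and the 3 largest 25.1%. Expanded clones held 66.3% of these cells, while 34.2% of all WT-2 CD8 cells were in expanded clones. In PS-5X, 51.4% of such cells were in expanded clones, against 50.7% of all its CD8 cells, and in 5XFAD-1 31.6%, against 42.8%. The remaining pools went the same way as WT-2, by less. In 5XFAD-2 the share was 56.4%, against 41.2% of all its CD8 cells, and in PS19 34.7%, against 24.98%. In WT-1 it was 5 of 20 cells, against 21.2% of all its CD8 cells. Of the 36 WT-2 clones of at least 5 cells, 12 had at least 2 of the genes in 50% or more of their cells, and these 12 held 179 of the 447 cells in such clones (40.04%). They used 7 V genes and 12 different CDR3 sequences and ranged from 5 to 44 cells. Among the other pools, PS-5X had 1 such clone of 59, 5XFAD-2 1 of 32, 5XFAD-1 1 of 29, PS19 2 of 18 and WT-1 0 of 3. Over all pools, 135 of 177 clones of at least 5 cells had no cell with 2 of the genes. The WT-2 clone of 44 cells printed above stood at 384 CPM for Cx3cr1, 372 for S1pr5 and 609 for Zeb2, whereas the largest WT-2 clone, with 50 cells, stood at 0 for Cx3cr1 and S1pr5 and at 61.0 CPM for Zeb2. Cells of a clone share their origin and are no replicates.

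In WT-2 the levels were highest in the largest clones, and in the other pools together they were not. In clones of at least 10 cells, Cx3cr1 stood at 190 CPM in WT-2 (334 cells), against 4.74 CPM in the other pools together (1852 cells, exact 95% Poisson interval 3.52 to 6.24). S1pr5 stood at 154 CPM in WT-2, against 2.18 CPM across the other pools, and Zeb2 at 312 CPM in WT-2, against 30.2 CPM across the other pools. Single-cell clones of the other pools together stood at 9.49 CPM for Cx3cr1, 10.1 CPM for S1pr5 and 24.9 CPM for Zeb2. PS-5X supplied 1232 of the 1852 cells, and pools differed: Cx3cr1 in clones of at least 10 cells against single-cell clones stood at 5.31 against 5.12 CPM in PS-5X and 12.2 against 5.94 CPM in 5XFAD-2, but at 0 against 14.4 CPM in 5XFAD-1, 0 against 13.4 CPM in PS19 and 0 against 12.6 CPM in WT-1 (30 cells). S1pr5 was lower in the largest clones of each of these 5 pools. Between these ends Cx3cr1 in the other pools reached 17.5 CPM in clones of 2 cells, 18.8 CPM in clones of 3 to 4 cells and 23.6 CPM in clones of 5 to 9 cells. These pooled values are sums over 5 pools of unequal size.

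**Figure D3:**
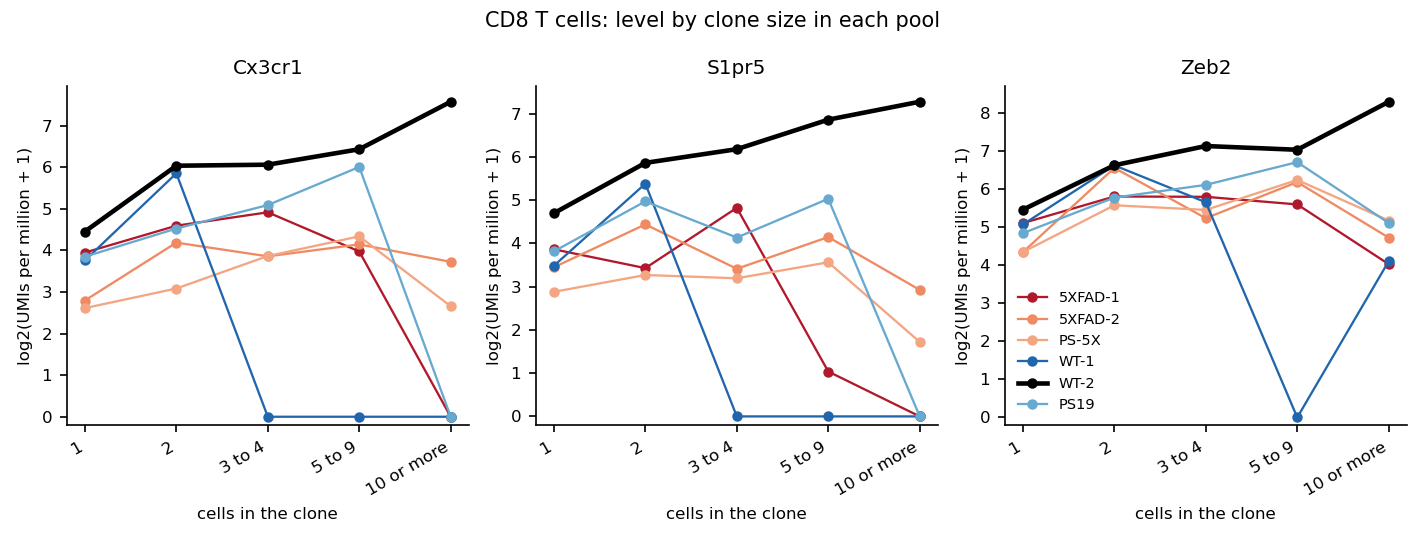
Level of each gene in CD8 T cells, as log2 of CPM plus 1, by the number of cells in the clone, with a line for each pool. WT-2 is the thick black line and lies above the others in clones of 10 or more cells, at 190 CPM for Cx3cr1 against 4.74 CPM in the other pools together.

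Tested over the 6 pools, with the pool as a term, expanded CD8 clones had more Cx3cr1 and Zeb2 than single-cell clones. Expanded clones of PS-5X had 40.9 CPM of Zeb2, those of 5XFAD-2 53.3, of 5XFAD-1 35.5, of PS19 63.1, of WT-1 55.3 and of WT-2 205.7 CPM. Single-cell clones of the same pools, in the same order, had 19.3, 19.3, 33.4, 27.7, 32.6 and 42.9 CPM. Every pool was higher in its expanded clones on the CPM scale, 5XFAD-1 by the least, and 5XFAD-1 had a ratio of 0.998 after scaling by trimmed means (TMM). The Zeb2 log2 difference was 1.098 (SE 0.18, adjusted p = 0.000163 by edgeR's quasi-likelihood test with Benjamini-Hochberg adjustment over 10962 genes). It was 0.78 without WT-2 (adjusted p = 6.9e-05). Cx3cr1 was higher in expanded clones in 5 of 6 pools, from 7.81 CPM in PS-5X to 124 CPM in WT-2, against 5.12 CPM and 20.9 CPM in the single-cell clones of these pools; 5XFAD-1 had 11.7 CPM in expanded and 14.4 CPM in single-cell clones. Its log2 difference was 1.13 (SE 0.26, adjusted p = 0.00315) and 0.50 without WT-2 (adjusted p = 0.0469). DESeq2 gave 0.87 for Cx3cr1, short of the threshold (adjusted p = 0.0811). S1pr5 did not pass the test, with a log2 difference of 0.57 (SE 0.31, adjusted p = 0.182), and -0.23 without WT-2. In this comparison 30.7% of all genes passed, 16.1% in the higher direction. Naive-type cells are mostly single-cell clones, and without them the differences were -0.03 for Cx3cr1, -0.08 for S1pr5 and 0.09 for Zeb2 (adjusted p from 0.872 to 0.995).

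**Figure D4:**
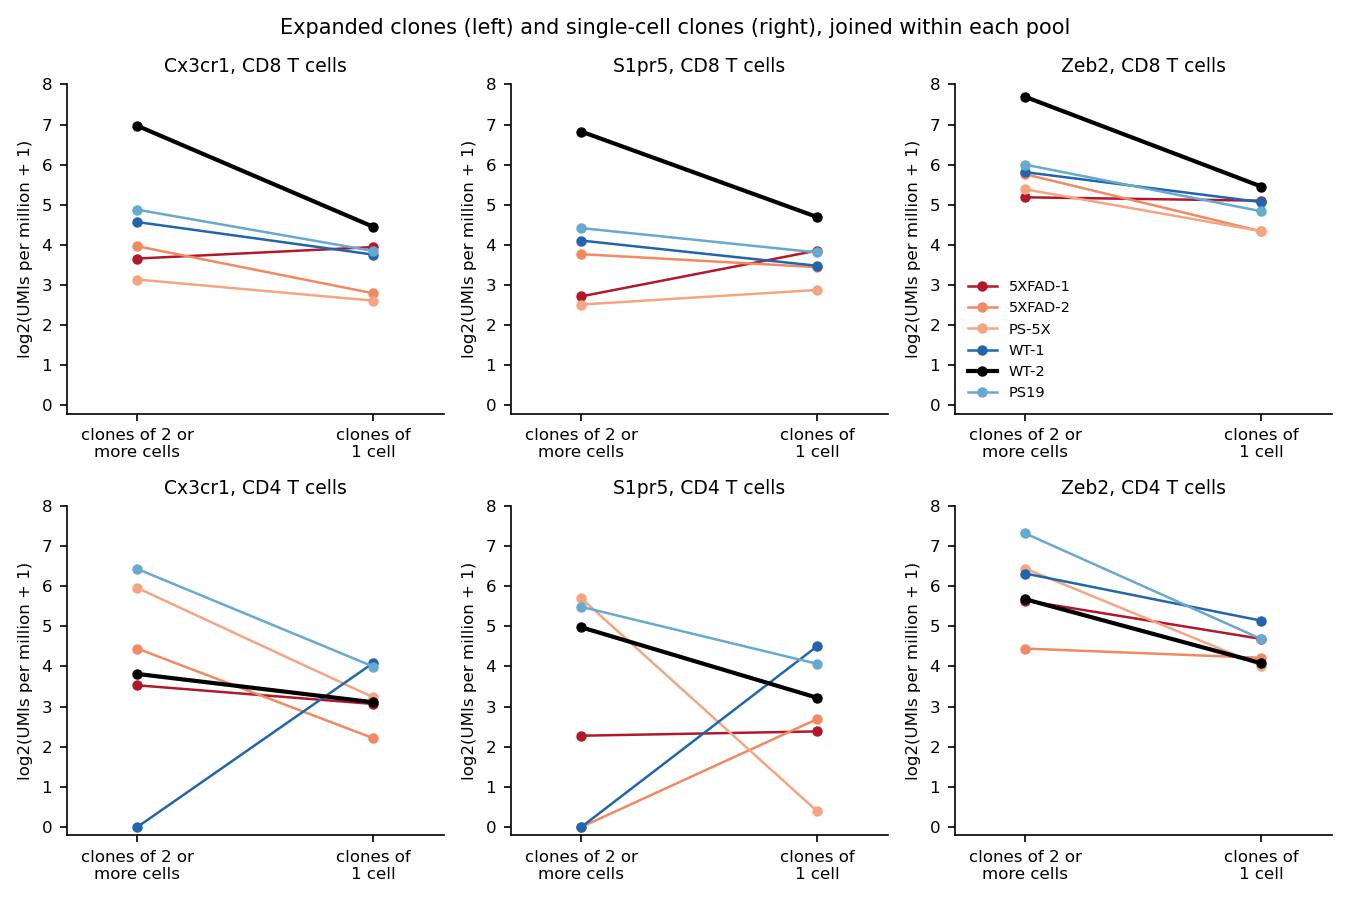
Level of each gene, as log2 of CPM plus 1, in clones of 2 or more cells (left of each panel) and in clones of 1 cell (right), joined within each pool, for CD8 (top) and CD4 T cells (bottom). WT-2 is the thick black line; Zeb2 is higher in the expanded clones of all 6 pools in both classes on this scale.

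Other genes of these pathways split in the same comparison. All 10 naive genes fell in expanded clones, with a median log2 difference of -3.05, and without naive-type cells 457 genes passed in place of 3369. The list counts that follow include naive-type cells and were not taken without them. A different share of naive-type cells in the 2 groups therefore cannot be told apart from a change within other cells. Of 15 genes of tissue residency, 14 rose in expanded clones and none fell, where 16.1% of all genes rose, led by Pdcd1 (log2 1.94, an inhibitory receptor), Cxcr6 (1.15, a chemokine receptor of resident cells), Bhlhe40 (1.27, a transcription factor) and Rgs1 (0.98, a brake on G protein signals). Of 21 genes of circulating effector cells, 14 rose and 7 fell. S1pr1 (-2.16, the main receptor for exit from lymphoid tissue) fell, while Id2 (0.88) and S100a4 (1.13) rose. Of 9 genes of the sphingosine 1-phosphate pathway, S1pr2 rose (0.80), S1pr1 and S1pr4 (-0.74) fell, and the rest did not pass. Of 12 genes that act with or against Zeb2, 4 rose and 4 fell, including a rise of Prdm1 (1.23) and Id2, which promote effector differentiation, and a fall of Tcf7 (-1.46) and Bach2 (-1.36), which hold it back. Of 13 chemokine genes, 9 rose, Ccl3 (2.02) and Ccl4 (1.80) among them, and 3 fell, led by Ccr7 (-3.59). The median log2 difference was 0.93 for the residency list, 0.49 for the circulating effector list and 0.0059 over all genes.

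Between clones of at least 5 cells and clones of 2 to 4 cells, no difference in the 3 genes passed the test over the 6 pools. The log2 differences were 0.08 for Cx3cr1 (SE 0.31), -0.19 for S1pr5 (SE 0.37) and -0.01 for Zeb2 (SE 0.21), with adjusted p at least 0.938 by edgeR, where 3.08% of 9307 genes passed, 1.41% in the lower direction. WT-2 was the only pool in which S1pr5 was higher in the larger clones, at 143 CPM against 62.9 CPM in its smaller clones. Without WT-2 the S1pr5 difference was -1.49 (adjusted p = 0.0256), that of Cx3cr1 -0.80 (adjusted p = 0.189) and that of Zeb2 -0.47 (adjusted p = 0.1). S1pr5 in the larger against the smaller clones of those pools was 3.21 against 8.41 CPM in PS-5X, 11.1 against 15.5 in 5XFAD-2, 0.360 against 16.5 in 5XFAD-1, 15.3 against 24.4 in PS19 and 0 against 25.8 CPM in WT-1. Cells with a receptor that another pool shared made up all 35 large-clone cells of WT-1 and left 83 of 441 in 5XFAD-1 when they were taken out, so these pools are not independent here. Without such cells the S1pr5 difference over all pools, WT-2 included, was 0.19 (adjusted p = 0.915 by edgeR), and WT-1 had no large clone. Its counterpart is the value of -0.19 over all pools. No fit left out both such cells and WT-2, so the -1.49 was not tested without shared receptors. In the same comparison over all pools, 10 of 15 residency genes rose and none fell.

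In CD4 T cells the order of pools differed, and WT-2 did not lead. Cx3cr1 stood at 17.7 CPM in PS-5X and 24.4 CPM in PS19, against 5.82 in 5XFAD-2, 8.50 in 5XFAD-1, 8.37 in WT-2 and 14.3 in WT-1. Both pools with mutant tau were above the 4 pools without it, at 21.0 ± 4.72 CPM (SD, n = 2) against 9.26 ± 3.61 CPM (SD, n = 4). The log2 difference for tau was 1.29 (SE 0.25) and did not pass the threshold, with an adjusted p = 0.321 by edgeR's quasi-likelihood test with Benjamini-Hochberg adjustment over 10258 genes, of which 0.00975% passed. S1pr5 and Zeb2 had tau differences of 0.75 (SE 0.30) and 0.40 (SE 0.28), both with adjusted p at least 0.97. The PS-5X value came in large part from a CD4 clone of 5 cells, which held 55.1% of that pool's CD4 Cx3cr1 UMIs, 66.7% of its S1pr5 and 35.2% of its Zeb2 UMIs. In PS19 the clone with the most such cells held 14.7% of the Cx3cr1 UMIs.

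S1pr5 was lower in every amyloid pool in CD4 cells, which come from the same pools as the CD8 cells on which it was chosen. It stood at 9.22 CPM in PS-5X, 4.76 in 5XFAD-2 and 4.08 in 5XFAD-1, against 19.5 in PS19, 11.4 in WT-2 and 19.5 in WT-1. The exact 95% Poisson intervals of the nearest pools overlapped, at 6.46 to 12.8 CPM in PS-5X and 8.04 to 15.6 CPM in WT-2. The means were 6.02 ± 2.79 CPM with amyloid and 16.8 ± 4.68 CPM without (SD, n = 3 each). The log2 difference of -1.40 (SE 0.30) did not pass the threshold in edgeR's quasi-likelihood test (adjusted p = 0.959, or 0.17 with the sequencing run as a block). Cx3cr1 and Zeb2 had amyloid differences of -0.46 (SE 0.26) and -0.27 (SE 0.27), with adjusted p = 1 by edgeR. In this contrast edgeR called 0% of 10258 genes, with 474 at an unadjusted p under 0.05, and DESeq2 called 3.

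Cells classed as CD4 that carried the genes mostly fell into clusters named CD8. Of 222 Cx3cr1 UMIs in CD4 cells, 171 were in cells that fell into clusters named CD8, and 17 in clusters named CD4. For S1pr5 it was 166 and 1 of 174 UMIs, and for Zeb2 276 and 111 of 478 UMIs. A Cd4 count of 1 UMI was all that classed 893 of the 2609 CD4 cells, and these held 73 of the Cx3cr1 UMIs. Only 1 CD4 cell belonged to a clone made mostly of CD8 cells, and it had no UMI of the 3 genes. The clusters were built on 2000 variable genes with the 3 genes among them, so this placement is not independent of them, and the part of stray coreceptor UMIs was not tested.

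Expanded CD4 clones carried more Zeb2 and Cx3cr1 than single-cell CD4 clones. Zeb2 was higher in the expanded clones of all 6 pools, from 20.8 CPM in 5XFAD-2 to 158 CPM in PS19, against 17.6 and 24.7 CPM in the single-cell clones of these pools. Its log2 difference was 1.66 (SE 0.24, adjusted p = 0.000244 by edgeR), in a comparison where 9.49% of 8802 genes passed, 4.51% in the higher direction. Cx3cr1 was higher in 5 of 6 pools, most in PS19 with 85.3 against 14.99 CPM and in PS-5X with 61.2 against 8.39 CPM, and at 0 against 16.01 CPM in WT-1. Its log2 difference of 1.71 (SE 0.37, adjusted p = 0.00614) fell short of the threshold without PS-5X (1.28, adjusted p = 0.0938) and without PS19 (1.44, adjusted p = 0.0595). S1pr5, with 1.65 (SE 0.62, adjusted p = 0.112), did not pass, and 3 pools were higher and 3 lower. Without naive-type cells Zeb2 passed at 0.90 (adjusted p = 0.0281) and Cx3cr1 did not, at 0.90 (adjusted p = 0.218). With naive-type cells included, 12 of 15 residency genes rose here, and of 21 circulating effector genes 9 rose, led by Gzma (3.29), and 5 fell.

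CD8 cells as a class were not above CD4 cells beyond the spread between pools. Over 6 pools Cx3cr1 averaged 18.3 ± 16.001 CPM in CD8 cells and 13.2 ± 7.01 CPM in CD4 cells, S1pr5 17.1 ± 16.2 and 11.4 ± 6.82 CPM, and Zeb2 42.5 ± 22.8 and 30.2 ± 9.85 CPM (SD, n = 6 each). The log2 differences were 0.36 (SE 0.39, adjusted p = 0.552), 0.63 (SE 0.34, adjusted p = 0.192) and 0.56 (SE 0.24, adjusted p = 0.0977 by edgeR), while 29.4% of 10866 genes passed. WT-2 set the direction for Cx3cr1, which was -0.29 without that pool. With classes taken from clusters instead, all 3 genes passed, at 3.47, 5.49 and 2.14, with classes that the 3 genes helped to set.

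Gamma-delta T cells had the least Cx3cr1. They held 4 UMIs of it in PS-5X, 2 in 5XFAD-2, 0 in 5XFAD-1, 1 in PS19, 3 in WT-2 and 1 in WT-1, which are levels of at most 4.14 CPM, and a count of 0 in 5XFAD-1 allows up to 3.16 CPM (the level of 3 UMIs). At 2000 UMIs per cell, 0.412% of gamma-delta cells had a Cx3cr1 UMI, against 0.480% of naive-type CD8 cells, so this is the background. Against CD8 cells the log2 difference of gamma-delta cells was -3.14 for Cx3cr1 (SE 0.37, adjusted p = 1.55e-06), -1.49 for S1pr5 (SE 0.32, adjusted p = 0.00111) and -0.95 for Zeb2 (SE 0.28, adjusted p = 0.0104 by edgeR over 10654 genes). Here 40.2% of all genes passed, 19.9% in the lower direction. After TMM scaling, gamma-delta cells were lower in all 6 pools for each gene, while on the unscaled CPM scale they were lower in 6 pools for Cx3cr1, 4 for S1pr5 and 3 for Zeb2. Without WT-2, Cx3cr1 still passed, S1pr5 passed at -0.95 (adjusted p = 0.0449), and Zeb2 no longer passed, at -0.49 (adjusted p = 0.0614). Against CD4 cells Cx3cr1 was lower by the test (-2.62, SE 0.40, adjusted p = 6.98e-05), while S1pr5 (-0.72, SE 0.34, adjusted p = 0.116) and Zeb2 (-0.41, SE 0.18, adjusted p = 0.0966) did not pass, among 9402 genes of which 36.5% passed. From highest to lowest, the classes therefore stood as CD8, CD4 and gamma-delta for each gene, with CD8 and CD4 not told apart for any of the genes and CD4 and gamma-delta told apart for Cx3cr1 only. Without WT-2, CD4 stood above CD8 for Cx3cr1 and S1pr5, at 14.1 ± 7.38 against 11.9 ± 4.14 CPM and 11.4 ± 7.63 against 10.6 ± 3.22 CPM (SD, n = 5 each).

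Among gamma-delta cells of these same pools S1pr5 was lower in each amyloid pool. It stood at 0.748 CPM in PS-5X, 5.70 in 5XFAD-2 and 3.16 in 5XFAD-1, against 15.7 in PS19, 9.22 in WT-2 and 12.4 in WT-1, from 1 to 12 UMIs in a pool. The exact 95% Poisson intervals of the nearest pools overlapped, at 1.85 to 13.3 CPM in 5XFAD-2 and 3.98 to 18.2 CPM in WT-2. The log2 difference of -2.05 (SE 0.67) did not pass (adjusted p = 0.52 by edgeR, with 0.0595% of 8410 genes called). Zeb2 ranged from 9.11 to 37.3 CPM with the groups overlapping, at 0.44 (SE 0.45, adjusted p = 0.963) for amyloid and 0.39 (SE 0.44, adjusted p = 0.921) for tau. The tau difference of S1pr5 was -0.15 (SE 0.67, adjusted p = 0.992), with 0.119% of genes called. Cx3cr1 fell under the count filter here. Of the circulating effector genes, 15 of 21 were lower and 4 higher in gamma-delta than in CD8 cells, where 40.2% of all genes passed and 19.9% were lower, with Itga4 (-1.95, an integrin chain for entry into inflamed tissue) and Itgb1 (-1.64, its partner) among the lower. Eomes (-2.67) and Tbx21 (-0.90), which encode the T-box factors of effector cells, were lower as well, as was S1pr1 (-1.41).

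No tau difference in the 3 genes passed the test in CD8 cells. Pools with tau averaged 11.4 ± 7.19 CPM for Cx3cr1 and pools without it 21.7 ± 19.1 CPM, 12.2 ± 2.83 CPM without WT-2 (SD, n = 2, 4 and 3). The log2 differences were -0.93 (SE 0.41), -1.03 (SE 0.45) and -0.48 (SE 0.31) for Cx3cr1, S1pr5 and Zeb2, with adjusted p from 0.901 to 0.912. Leaving out WT-2 reduced them to -0.36, -0.36 and -0.07. edgeR called 0% of 11723 genes, with 604 at an unadjusted p under 0.05, and DESeq2 called 22.

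The genes whose pattern was most like that of the 3 were ranked next, as a description. Likeness was taken within each pool as log2 of CPM plus 1 in CD8 cells with at least 2 of the 3 genes over that in cells with none, and genes were ranked by the lowest value of the 6 pools. Klrg1, an inhibitory lectin-like receptor of terminal effector cells, led with 4.80, at 240 ± 126 CPM in cells with the genes and 3.96 ± 1.43 CPM in cells with none (SD over 6 pools). It was followed by Rap1gap2 (3.02, a regulator of the small GTPase Rap1), Klra9 (2.90), Kcnj8 (2.63, a potassium channel), Borcs7 (2.46, part of a complex that moves lysosomes) and Gzma (2.45, granzyme A). Klre1 (2.36) and Klrd1 (1.72), lectin-like receptors shared with natural killer cells, Il18rap (2.33, a chain of the interleukin 18 receptor) and Ccl5 (1.90, a chemokine) completed the first 10. Reads of Klra9 can be split among its near copies, so its value is uncertain. The most unlike genes were Igfbp4 (at most -2.95 in any pool), Actn1 (-1.89), Rflnb (-1.76), Isg20 (-1.75) and Dapl1 (-1.56).

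**Figure D5:**
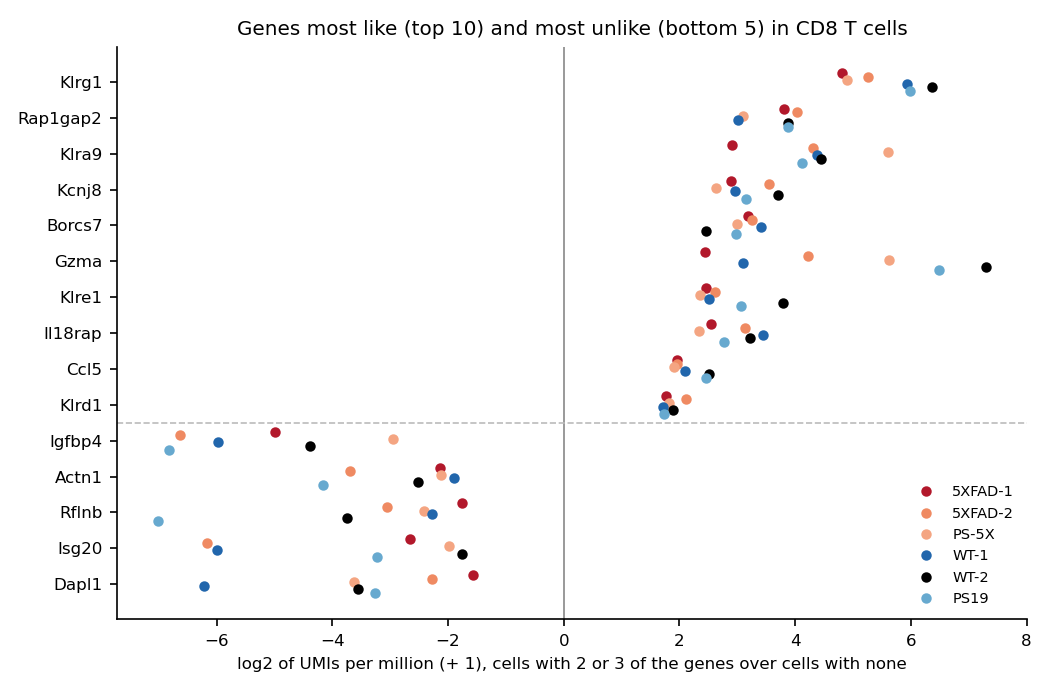
For each gene on the vertical axis, log2 of CPM plus 1 in CD8 T cells with at least 2 of Cx3cr1, S1pr5 and Zeb2 over that in CD8 T cells with none (horizontal axis), with a dot for each pool. Klrg1 lies above 4.80 in every pool, and Igfbp4 below -2.95.

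In the same description, 16 of 21 circulating effector genes measured above 20 CPM were higher in every pool in cells with the genes. Over all 6409 such genes, 23.3% were higher and 5.84% lower in every pool. Tbx21, which encodes T-bet, stood at 404 ± 58.0 CPM in cells with the genes and 115 ± 17.7 CPM in cells with none, and Klf2, a factor that drives S1pr1, at 3082 ± 302 and 1009 ± 162 CPM (SD over 6 pools). S1pr1 itself had no common direction, with -0.38 to 0.92 over the pools. Of 15 residency genes, Runx3, Nr4a1 and Bhlhe40 were higher in every pool, and Cd69, Cxcr6, Xcl1, Cdh1 and Itgae were lower in every pool. Itgae, the integrin chain of resident cells, stood at 7.26 ± 11.0 CPM in cells with the genes and 50.8 ± 16.02 CPM in cells with none. All 10 naive genes but 1 were lower in every pool. The cells compared differ in depth, as given above.

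Values that bear on blood or other cells were read in the CD8 cells of each pool. The labels state that blood was drawn and the animals were perfused with PBS, list no stain for cells inside vessels, and give no record of perfusion by animal, and blood T cells were not analysed here. The level of red blood cell genes was 0 UMIs of 6 genes in WT-2, against 0 to 1.68 CPM across the other pools. Platelet genes (5 in the list, with Pf4, Ppbp, Gp9 and Gp1bb at 0 in all pools) summed to 0.0800 CPM in WT-2, against 0.234 to 0.502 CPM across the other pools. Neutrophil genes (5 in the list, with S100a9 and Retnlg at 0 in all pools) summed to 1.28 CPM in WT-2, against 0.186 to 0.826 CPM across the other pools. WT-2 was thus not raised in red cell or platelet genes, and its neutrophil sum, though the highest, was near 0. These lists mark carried-over blood, not T cells lying in vessels, which a CD8 sort would keep, so the part of perfusion in the lead of WT-2 was not tested.

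Lists of other cells that could carry the genes gave mixed values. The 6 monocyte genes summed to 112 CPM in WT-2, the lowest, and 126 to 160 CPM in the other pools, and the 6 B cell genes to 119 CPM in WT-2, against 76.3 to 157 CPM across the other pools. The 7 natural killer genes were highest in WT-2, at 116 CPM, against 29.7 to 84.3 CPM in the other pools. Of these, Ncr1 had 58 UMIs in 12 WT-2 cells and 1 to 8 UMIs in the other pools, and 2 of those 12 cells were among the 291 with at least 2 of the 3 genes. In the 291 cells the natural killer list stood at 438 CPM, against 65.8 CPM in WT-2 cells with none of the genes, and Klre1, which is also among the 10 most like genes, gave most of it over all CD8 cells of WT-2 (62.3 CPM). All CD8 cells had a beta chain of the T cell receptor, and the part of natural killer RNA in the result was not tested beyond these counts. Of the defining microglial genes, WT-2 had 0 UMIs of Tmem119 and 1 of P2ry12.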

How the data were processed

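The authors deposited a single matrix of UMI counts per gene and cell for all 6 pools, with a table of assembled T cell receptor chains, and did not normalize the counts. Each cell was tied to its pool by the suffix of its barcode, through the pool names given with the receptor chains. Cell Ranger 6.0.1 was used, per the submitters' processing notes, which also list the builds GRCm38 and mm10, giving neither a role.

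Cells needed at least 500 genes and no more than 10% of UMIs from mitochondrial genes. Doublets were scored with scrublet in each pool, and since its automatic threshold marked few cells, the highest-scoring cells were removed at 0.8% per 1000 cells. CD8 and CD4 cells had a beta chain and UMIs of only that coreceptor; gamma-delta cells had no alpha or beta chain and UMIs of gamma-delta receptor genes. Leiden clusters (scanpy 1.11.5, leidenalg 0.10.2) gave alternative classes. A clone is a receptor clonotype of a pool, expanded from 2 cells and large from 5. Sums of UMI counts over the cells of each class in a pool went into edgeR 4.0.16 (quasi-likelihood, TMM scaling, Benjamini-Hochberg adjusted p under 0.05) on all genes past a count filter, with amyloid and tau as terms, or with the pool as a term where classes or clones of the same pools were compared. DESeq2 1.42.0 was an alternative. The models were tested on simulated data. A pool mixes several mice, so the p-values rest on the spread between pools and not between mice.

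The genes, the gene lists and the tests were chosen with earlier results of these data known. Named besides the 3 genes were up to 4 genes of each list by smallest p, the 10 genes most like and the 5 most unlike them. Exceptions chosen after their values were seen are Tbx21, Klf2, S1pr1, Itgae and the residency genes named with it, Ncr1 and Klre1, and the receptors printed. In CD8 cells, deviations from the group means of WT and 5XFAD pools with the same number correlated at 0.22 over 12236 genes, in CD4 cells at 0.213 and in gamma-delta cells at 0.0715; number 2 marks the separate sequencing run, which the labels state, so the run was used as a block in an alternative. Results that name certain items are not reported here.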

Additional observations from a re-analysis of the deposited data

Results flagged for a closer look

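WT-2 stood apart from the other pools in 10 of 27 sets of 6 pool levels. Chance alone sets a pool apart in about 1 of 20 independent sets, but these sets share cells, and the genes were chosen on a contrast in which WT-2 weighs most, so the number is a description and supports nothing. The measure is the gap to the nearest pool as a share of the whole range, read against a critical value of 0.625. In all CD8 cells it was 0.767 for Cx3cr1, 0.795 for S1pr5 and 0.878 for Zeb2. In expanded CD8 clones it was 0.823, 0.854 and 0.838 in the same order of genes, and in clones of at least 5 cells 0.810, 0.893 and 0.783. In clones of 2 to 4 cells S1pr5 reached it too, at 0.682. The part of sequencing run, mice, perfusion and clones in this was not tested beyond the values given with the lead of WT-2.

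The 3 genes were also found in 3812 kept cells that fell outside the CD8, CD4 and gamma-delta classes and so entered no comparison. Their levels there were 15.4 CPM for Cx3cr1, 12.5 CPM for S1pr5 and 55.1 CPM for Zeb2, above the 0.138 CPM that a count of 3 UMIs would give. WT-2 was again highest, at 33.5 CPM for Cx3cr1, 27.1 CPM for S1pr5 and 81.2 CPM for Zeb2. Of these UMIs, 61.2% of Cx3cr1, 73.8% of S1pr5 and 36.7% of Zeb2 were in cells of clusters named CD8, and 34.3%, 23.2% and 55.9% in clusters with no name. The unnamed clusters led by the long noncoding RNA genes Gm43065 and Gm26917 and by immunoglobulin genes stood at 232.7 and 236.2 CPM of Zeb2 over all kept cells.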

How the results depend on the processing

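Of 489 recomputed values, 404 were counted as unchanged. For tested differences this means the same direction and side of the threshold. The amyloid folds in CD8 cells were untested and had to stay within the spread between pools. The lead of WT-2 and the shares of cells had to stay within counting intervals. In the rest, 29 turned direction, 9 lost and 19 gained a call, and 28 untested values moved beyond these ranges without turning. The cause of these changes was not tested. Values are log2 differences unless stated.

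Leaving out each pool in turn gave, for Cx3cr1, S1pr5 and Zeb2 in order: amyloid in CD8 -1.87 to -0.86, -1.92 to -0.74 and -1.002 to -0.20; amyloid in gamma-delta Zeb2 -0.036 to 0.78; tau in gamma-delta S1pr5 -2.36 to 0.67; CD8 against CD4 -0.29 to 0.85, 0.05 to 0.93 and 0.14 to 0.74; gamma-delta against CD8 Zeb2 -1.25 to -0.49; gamma-delta against CD4 Zeb2 -0.58 to -0.24; expanded CD8 clones 0.50 to 1.42, -0.23 to 0.87 and 0.78 to 1.32; large clones -0.80 to 0.40, -1.49 to 0.094 and -0.47 to 0.14; expanded CD4 clones 1.28 to 1.91 for Cx3cr1.

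With the sequencing run as a replicate block, the amyloid differences in CD8 were -1.43, -1.38 and -0.66. Tau in Zeb2 turned to -0.040 in CD4 and -0.35 in gamma-delta cells, and to -0.15 and -0.25 when WT-1 was also left out. The block changed no other call. Without the pool as a term, gamma-delta against CD8 S1pr5 (-1.56) and expanded CD8 Cx3cr1 (1.38) no longer passed, and large clones had 0.32 for S1pr5 and 0.22 for Zeb2.

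Without a count filter, calls were gained by amyloid in CD4 S1pr5 (-1.39), tau in CD8 (-0.92, -1.03 and -0.47), tau in CD4 Cx3cr1 (1.302), CD8 against CD4 S1pr5 (0.66) and Zeb2 (0.58), and S1pr5 in expanded CD8 (0.57) and CD4 clones (1.61), while large clones had 0.0031 for Zeb2. With clusters as classes, Zeb2 was 0.77 for amyloid and -0.10 for tau in CD4, 0.79 for gamma-delta against CD4 and 0.013 in large clones. CD8 against CD4 passed at 3.47, 5.49 and 2.14, and expanded CD4 Cx3cr1 missed at 1.52. Without cells whose receptor another pool shared, calls were gained by CD8 against CD4 Zeb2 (0.75) and by S1pr5 in expanded CD8 (0.84) and CD4 clones (1.84), and large clones had 0.19 for S1pr5 and 0.23 for Zeb2. DESeq2 gave 0.87 for expanded CD8 Cx3cr1, which missed, and -0.72 for large clones. With doublets kept, large clones had 0.074 for Zeb2. Without naive-type cells, expanded CD8 clones had -0.027, -0.082 and 0.088 and expanded CD4 clones 0.90 for Cx3cr1, none passing.

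The lead of WT-2, as a fold, was 1.76, 2.49 and 1.64 without clones of at least 5 cells, 1.87, 2.64 and 1.79 with each clone once, and 5.22, 6.84 and 4.00 without naive-type cells. It was 8.49, 8.88 and 3.86 in expanded clones, 1.67, 2.45 and 1.55 in single-cell clones, and 2.64, 4.02 and 2.24 in single-cell clones without naive-type cells. S1pr5 led 4.14-fold with clusters and 3.84-fold without shared receptors, where Zeb2 led 2.84-fold. Shares of WT-2 CD8 cells were 5.68%, 5.23% and 8.77% at 1000 UMIs and 13.2%, 13.8% and 20.2% unthinned.

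Counts of genes called among all genes moved by over 1.5 times in several settings. Without a filter they were 565 for amyloid in CD8, 129 in CD4 and 121 in gamma-delta cells, 226 and 163 for tau in CD8 and CD4, and 472 for large clones. DESeq2 called 69, 3 and 15 for amyloid, 22 and 11 for tau in CD8 and CD4, and 181 for large clones. With the block, 72 genes were called for tau in CD4. With no pool term, 1859 genes passed for CD8 against CD4, 2095 for expanded CD8 and 30 for large clones. Without naive-type cells, 457 passed for expanded CD8 and 191 for expanded CD4 clones.

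Each contrast of amyloid or tau rests on 6 pools, 1 with both. Gamma-delta cells number 32 to 224 in a pool, so at most 4 UMIs of Cx3cr1 were counted there and differences of its low levels were not detectable at this depth. At 1000 to 2000 UMIs per cell, a cell without a UMI may still express a gene.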

Other observations

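The lists around the 3 genes also differed between the classes of T cells. Gamma-delta cells had higher Ccr2 (log2 difference from CD8 cells 2.39, a chemokine receptor for entry into inflamed tissue), Ccr6 (5.22, typical of cells that make interleukin 17) and Cxcr6 (1.78), and lower Ccr7 (-2.75). Of 14 chemokine genes tested there, 3 rose and 9 fell, and of 15 residency genes 8 rose and 5 fell (edgeR, adjusted p under 0.05, with 40.2% of all genes passing). CD8 cells had higher Eomes (2.01) and Ly6c2 (2.82) and lower S1pr1 (-0.92) than CD4 cells, and 4 of 9 genes of the sphingosine 1-phosphate pathway were lower and none higher in CD8 cells (29.4% of all genes passing). The 22 circulating effector genes together stood at 6605 CPM in WT-2 CD8 cells, against 5104 to 5670 CPM elsewhere, and the 15 residency genes at 2930 CPM in WT-2, against 2540 to 4132 CPM elsewhere, with PS19 lowest.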
